A study of Mus musculus with 6 samples.

Results

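The hypoxia-inducible factors (HIFs) and their regulators were represented on the arrays by 19 probes for 10 genes, of 55681 probes and 22170 named genes in all. The probes of each member were found by gene name, through the transcript on which each was designed or the full name in its description. Measured values did not enter that step, but the genes themselves were chosen with earlier results of these data known. They were the α subunits *Hif1a*, *Epas1* and *Hif3a*, the β subunits *Arnt* and *Arnt2*, the prolyl hydroxylases *Egln1*, *Egln2* and *Egln3*, the ubiquitin ligase subunit *Vhl* and the asparaginyl hydroxylase *Hif1an*. Expression was measured in a line of mouse (strain C57BL/6NCrLBR) microvascular endothelial cells, 1G11, either modified to overexpress superoxide dismutase 3 (1G11-SOD3) or mock-modified (1G11-mock). Both lines had spent 6 h in conditioned medium of N202.1A murine mammary cancer cells before RNA isolation, so that no array measured cells without that medium. Each line was sampled in 3 independent experiments, giving 6 single-color arrays. Each condition was a single modified cell line, and whether it was 1 clone or a pool is not given in the sources used here. The question addressed here was which of these genes differed between the lines.

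HIF is a transcription factor of an oxygen-labile α subunit and a constitutive β subunit. In the presence of oxygen the EGLN prolyl hydroxylases mark the α subunit, VHL recognizes the mark, and the protein is degraded, while HIF1AN blocks its contact with coactivators. Hypoxic cells keep the α subunit and turn on genes of glycolysis, angiogenesis and of the pathway itself, *Egln3* among them. Much of this control acts on protein, and the arrays measured mRNA only. In endothelial cells, EPAS1 (HIF-2α) and HIF1A take part in the vascular response to low oxygen.

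HIF binds a core of ACGTG or GCGTG, and the stretches before the starts of *Egln3*, *Egln1* and *Hif1a* are shown because *Egln3* was the gene that passed the threshold, *Egln1* is its homolog, and *Hif1a* had the next largest difference. The 250 bases upstream of the annotated start are printed from RefSeq (GRCm38.p6), 5′ to 3′ on the strand of the gene, with every core on either strand in capitals. The *Egln3* window (chr12:54203875-54204124, minus strand) held 1 ACGTG, which began 229 bases before the start.
Egln3: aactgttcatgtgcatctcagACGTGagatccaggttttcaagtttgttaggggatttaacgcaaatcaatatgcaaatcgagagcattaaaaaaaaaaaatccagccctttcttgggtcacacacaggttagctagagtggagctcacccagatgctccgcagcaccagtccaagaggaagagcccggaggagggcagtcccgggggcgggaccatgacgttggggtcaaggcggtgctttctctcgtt
The *Egln1* window (chr8:124949255-124949504, minus strand) held 1 ACGTG, 68 bases before the start, and 1 GCGTG, 126 bases before it.
Egln1: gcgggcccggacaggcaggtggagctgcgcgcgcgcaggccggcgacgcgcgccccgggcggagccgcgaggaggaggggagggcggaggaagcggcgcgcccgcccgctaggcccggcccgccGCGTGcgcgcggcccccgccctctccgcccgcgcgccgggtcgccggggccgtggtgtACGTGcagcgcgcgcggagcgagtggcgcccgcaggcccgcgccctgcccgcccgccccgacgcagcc
The *Hif1a* window (chr12:73907617-73907866, plus strand) held ACGTG in 2 places, the first of them a palindrome that carries the core on both strands.
Hif1a: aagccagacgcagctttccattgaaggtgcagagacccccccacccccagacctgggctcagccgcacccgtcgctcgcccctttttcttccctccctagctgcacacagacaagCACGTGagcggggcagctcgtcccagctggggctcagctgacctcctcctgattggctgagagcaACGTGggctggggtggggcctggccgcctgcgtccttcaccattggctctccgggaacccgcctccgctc
Windows were found for 9 of the 10 genes, 10 in all with 2 for *Egln2*. Of these 10, 4 held ACGTG and 7 held either core, and the *Arnt2*, *Vhl* and *Hif1an* windows held neither. Of 32851 such windows in the table, 16.6% held ACGTG and 38.6% either core. These matches describe letters in a short window and say nothing of binding, which was not measured.

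Probes are named below by the gene and the base of the target transcript at which the probe begins, and all values are normalized intensities on the log2 scale unless another quantity is named. A probe passed the threshold with more than a 2-fold difference and an adjusted p under 0.05 in limma, over all probes. Levels of different probes are not compared, since probes differ in their response. A HIF α subunit probe and a prolyl hydroxylase probe had the largest differences of the member probes, and the second of these was the only member to pass. The place of each spot mattered, because in a rectangular block in the middle of the array, which held 6606 of the 59305 spots, the bright spots read higher on the 1G11-SOD3 arrays. Outside that block 0.66% of probes passed as higher and 1.2% as lower, whereas inside it 12% passed as higher and 0.0622% as lower. Of the member probes, 18 lay outside and 1, *Arnt2*-5116, inside. All arrays shared 1 slide, with 1G11-SOD3 cells in its row 1 and 1G11-mock cells in row 2, and the effects of line and slide row cannot be told apart. As a second value, a position-adjusted difference is given where it matters, for which a smooth surface over rows and columns was taken off each array before normalization.

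**Figure D1:**
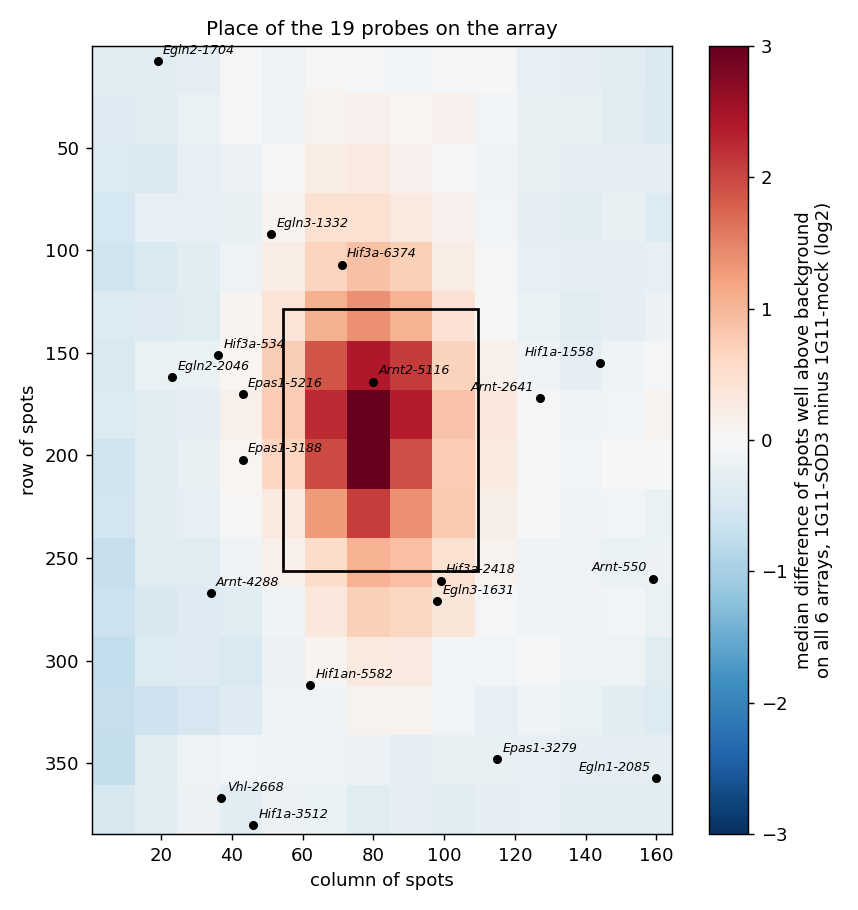
Place of the 19 probes among the rows and columns of spots (points), over the median difference (log2, 1G11-SOD3 minus 1G11-mock) of neighboring spots that were well above background on all 6 arrays; the box is the block in the middle of the array. *Arnt2*-5116 lies in the block, *Egln3*-1631 and *Hif3a*-2418 just below it, and the other probes lie around it.

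*Sod3*, the overexpressed gene, read 13.61, 12.66 and 9.86 on the 1G11-mock arrays and 16.37, 16.30 and 16.26 on the 1G11-SOD3 arrays, in the order of the replicate numbers. It was higher in 1G11-SOD3 cells by 4.27 (SE 0.70, adjusted p = 0.00740), and its spot lay inside the block. Bright spots in that part of the array had a median difference of 2.11, so that 4.27 is not a measure of the overexpression alone. Between 34.2% and 43.8% of spots per array were well above background and none was saturated. Of the endothelial markers, *Cdh5*, *Tek*, *Tie1*, *Emcn* and *Erg* were well above background on none of the arrays, *Pecam1* on 4, and *Eng*, *Vwf*, *Esam* and 1 of the 2 probes of *Kdr* on 6. *Vwf* was lower in 1G11-SOD3 cells, with a log2 difference of -1.66 (adjusted p = 0.00330). It was the only 1 of the 9 endothelial markers outside the block to pass, beside 1.92% of all genes there that passed as lower. *Eng* (-1.05, adjusted p = 0.0830), *Kdr* (-0.51 for its detected probe) and *Pecam1* (-0.51) were also lower and did not pass. Of the 9, the 4 above 0 were well above background on no array. Of 6 fibroblast and mural markers, 3 were higher (*Col1a1* by 3.10, *Pdgfrb* by 2.40, *Col1a2* by 1.27), beside 1.19% of all genes outside the block. *Pdgfrb* was well above background on only 1 1G11-mock array and *Col1a2* on none of them. *Dcn* (0.29), *Pdgfra* (0.27) and *Rgs5* (-0.54, above background on no array) did not pass. The mean level of that list was 9.63 to 10.15 on the 1G11-mock arrays and 10.78 to 11.41 on the 1G11-SOD3 arrays. None of 7 epithelial and 5 leukocyte markers passed. Of them, *Krt19*, *Cd3e* and *Itgam* were well above background on all 6 arrays, *Cdh1* and *Krt8* on some, and the others on none. The part of these marker differences in the HIF values was not tested, and in RNA of whole cultures fewer cells of a kind and less RNA per cell cannot be told apart.

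The α subunits came first. *Hif1a*, which encodes HIF-1α, had 1 probe well above background on all 6 arrays. *Hif1a*-3512 read 11.51, 11.75 and 12.64 in 1G11-mock cells and 10.02, 10.48 and 11.59 in 1G11-SOD3 cells. The highest 1G11-SOD3 array lay above the lowest 1G11-mock array, so that the lines overlapped. The mean was 11.97 ± 0.60 against 10.70 ± 0.81 (SD, n = 3), a log2 difference of -1.27 (SE 0.40, 95% confidence interval -2.15 to -0.38), which did not pass (adjusted p = 0.143). Without each array in turn it was between -1.72 and -0.92, with the adjusted p between 0.0565 and 0.440. Over the 16 alternative settings that kept all arrays the adjusted p was between 0.00997 and 0.225, and the probe passed under 1 of them, with the replicate number as a block. The position-adjusted difference was -0.99 (adjusted p = 0.104), and the bright spots around this probe had a median difference of -0.33.

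The second *Hif1a* probe did not measure the same stretch. *Hif1a*-1558 is named through the product in its description and lies 13304 bases before the first in the array annotation. It read 7.39, 7.20 and 7.83 against 7.16, 7.01 and 7.22 and was not well above background on any array. No fold is therefore given for it.

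*Epas1*, which encodes the HIF-2α subunit typical of endothelium, had 3 probes and none passed. *Epas1*-5216 read 13.21, 12.66 and 11.86 in 1G11-mock cells and 12.36, 12.01 and 12.13 in 1G11-SOD3 cells. Its lowest array was of 1G11-mock cells, and the lines overlapped. The log2 difference was -0.41 (95% confidence interval -1.11 to 0.29, adjusted p = 0.616), and the position-adjusted one -0.64. Without each array in turn it ran from -0.77 to -0.099. *Epas1*-3279 read 12.95, 13.53 and 13.49 against 12.69, 13.18 and 13.53, a difference of -0.19 (95% confidence interval -0.80 to 0.42, adjusted p = 0.817). Here the highest array of each line lay at the same level. *Epas1*-3188 read 8.24, 8.31 and 7.78 against 8.48, 8.09 and 8.07 and was well above background on the 3 1G11-SOD3 arrays and on no 1G11-mock array. Its difference was 0.10 (95% confidence interval -0.43 to 0.64, adjusted p = 0.895), and the sign turned under other scalings (-0.18 with the processed signal of the scanner software and -0.20 with scaling to the 75th percentile). The intervals of the other probes also included 0.

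*Hif3a*, whose product can act as an inhibitor of the other α subunits, was not detected by any of its 3 probes, which read between 6.65 and 7.80 on the 6 arrays. *Hif3a*-534 was lower on every 1G11-SOD3 array (7.03, 7.24 and 7.01) than on every 1G11-mock array (7.76, 7.56 and 7.25). *Hif3a*-2418 and *Hif3a*-6374 overlapped between the lines. Since none of the 3 was well above background on any array, no fold is given.

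The β subunits did not pass either. *Arnt* encodes HIF-1β, the common partner of the α subunits and of the aryl hydrocarbon receptor. *Arnt*-4288 read 12.14, 11.71 and 12.31 in 1G11-mock cells and 11.89, 10.88 and 11.91 in 1G11-SOD3 cells, with overlap and with 1G11-SOD3 replicate 2 lowest. The log2 difference was -0.49 (95% confidence interval -1.17 to 0.19, adjusted p = 0.523) and -0.18 after position adjustment. *Arnt*-2641 read 9.83, 10.05 and 10.02 against 10.36, 10.33 and 9.71, a difference in the other direction of 0.16 (95% confidence interval -0.38 to 0.70, adjusted p = 0.822). Another probe, *Arnt*-550, was designed on a separate transcript model and was not above background on any array.

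*Arnt2*, the paralog of *Arnt* best known from neural tissue, was the only member inside the block. *Arnt2*-5116 read 7.14, 6.63 and 6.96 in 1G11-mock cells and 7.91, 7.23 and 7.79 in 1G11-SOD3 cells, so that all 1G11-SOD3 arrays lay above all 1G11-mock arrays. It was well above background on no array, and no fold is given. After position adjustment, which takes the shift of the bright spots off dim ones too, the direction turned and the probe passed as lower (adjusted p = 0.0393). The 31 bright spots around it had a median difference of 2.82. Inside the block, probes well above background on all 6 arrays had a median difference of 1.02 (quartiles 0.45 and 1.78, n = 1200), and those above it on none had a median of 0.013 (quartiles -0.14 and 0.17, n = 3347).

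The prolyl hydroxylases held the clearest difference. *Egln3* encodes PHD3, an oxygen sensor that hydroxylates HIF α subunits and whose own gene is induced by HIF. *Egln3*-1332 read 10.35, 10.59 and 11.23 in 1G11-mock cells and 9.49, 9.59 and 9.21 in 1G11-SOD3 cells. All 1G11-SOD3 arrays lay below all 1G11-mock arrays. The mean was 10.73 ± 0.46 against 9.43 ± 0.20 (SD, n = 3), a log2 difference of -1.30 (SE 0.27, 95% confidence interval -1.89 to -0.70), or 2.45-fold lower in 1G11-SOD3 cells (adjusted p = 0.0251). The bright spots around it had a median difference of -0.03, and the position-adjusted value was also -1.30 (adjusted p = 0.0494). It passed under all 16 alternative settings that kept all 6 arrays, with the adjusted p between 0.0195 and 0.0499. It did not pass when a single array was left out, except for 1G11-mock replicate 1: the adjusted p was 0.0749 without 1G11-mock replicate 2, 0.0627 without 1G11-mock replicate 3, and 0.0805, 0.0580 and 0.107 without 1G11-SOD3 replicates 1, 2 and 3. The difference stayed between -1.49 and -1.06 in these fits.

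The second probe of *Egln3* began 299 bases further along the same transcript, and the probes disagreed in the call. *Egln3*-1631 read 10.89, 11.19 and 11.23 in 1G11-mock cells and 10.88, 10.77 and 10.51 in 1G11-SOD3 cells. Again the lines did not overlap and 1G11-SOD3 cells were lower, the closest pair reading 10.89 and 10.88. The log2 difference was -0.38 (SE 0.23, 95% confidence interval -0.88 to 0.12, adjusted p = 0.496). This spot lay in row 271 and column 98, just below the block, where the 83 bright spots around it had a median difference of 0.51. The position-adjusted difference was -0.87 (adjusted p = 0.0606). The array annotation, whose build is not given in the sources used here, places the probes at chr12:55281252-55281311 and chr12:55280953-55281012.

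*Egln2* encodes PHD1. *Egln2*-2046 read 15.02, 14.67 and 14.76 in 1G11-mock cells and 15.07, 14.91 and 13.92 in 1G11-SOD3 cells, in which replicate 3 stood below the other arrays. The log2 difference was -0.19 (95% confidence interval -0.85 to 0.48, adjusted p = 0.836). *Egln2*-1704 read 11.85, 12.75 and 13.23 against 11.70, 12.30 and 11.67, with overlap. Its difference was -0.72 (95% confidence interval -1.47 to 0.02, adjusted p = 0.365), and -0.39 after position adjustment. Without each array in turn it ran from -1.10 to -0.41.

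*Egln1* encodes PHD2, the main HIF prolyl hydroxylase of most cells. Its single probe, *Egln1*-2085, read 8.10, 8.17 and 8.70 against 7.74, 8.57 and 8.25 and was well above background on 1 1G11-mock and 2 1G11-SOD3 arrays. The lines overlapped, and the log2 difference was -0.14 (95% confidence interval -0.74 to 0.47, adjusted p = 0.875), with the sign turned after position adjustment (0.34).

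Neither of the remaining regulators passed. *Vhl*, which encodes the substrate-binding subunit of the ligase that removes hydroxylated α subunits, read 11.75, 11.53 and 12.06 in 1G11-mock cells and 11.81, 11.62 and 11.73 in 1G11-SOD3 cells. All 3 1G11-SOD3 values fell within the range of 1G11-mock cells. The log2 difference was -0.060 (95% confidence interval -0.57 to 0.45, adjusted p = 0.940). *Hif1an*, which encodes the asparaginyl hydroxylase FIH, read 8.22, 9.11 and 9.56 against 9.33, 8.66 and 9.31, and was above background on 2 1G11-mock and 3 1G11-SOD3 arrays. The difference was 0.14 (95% confidence interval -0.61 to 0.88, adjusted p = 0.901). For *Vhl* the interval leaves out a 2-fold difference of intensity in either direction. The interval of *Hif1an* does so too, but its probe was not above background on every array. The sign for *Hif1an* turned without 1G11-mock replicate 1 (-0.24).

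**Figure D2:**
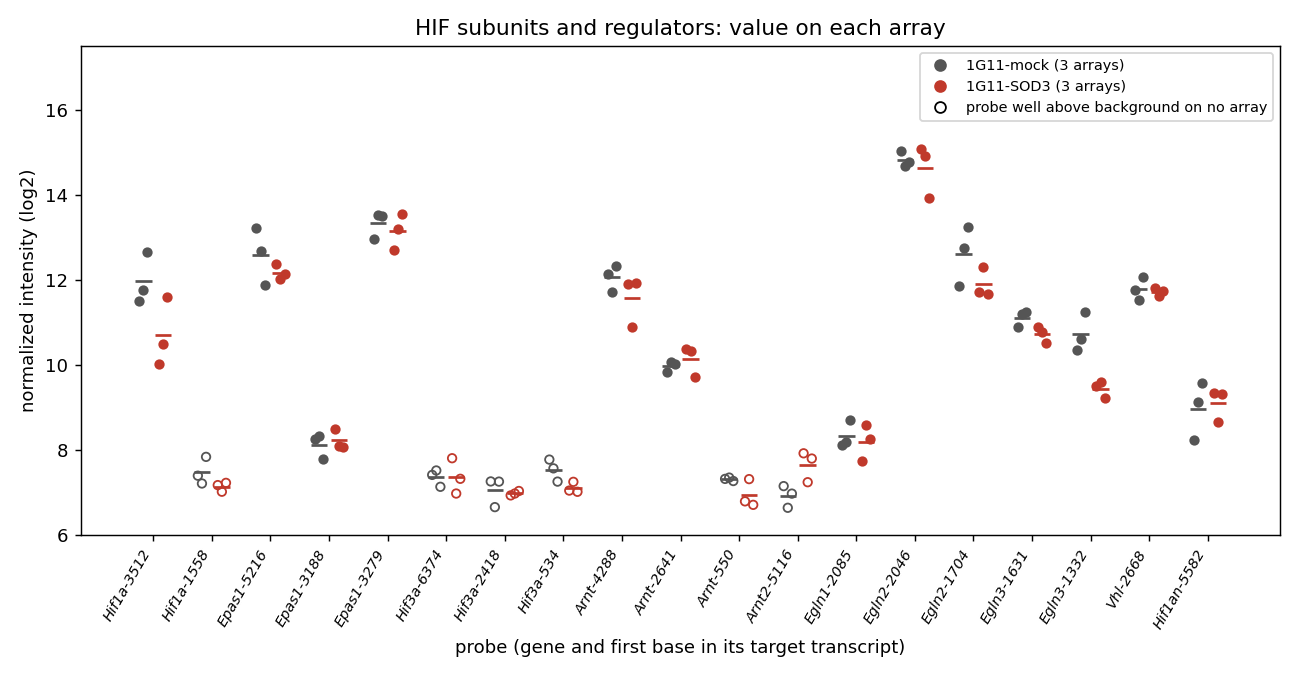
Normalized intensity (log2) of the 19 probes on each of the 3 1G11-mock (gray) and 3 1G11-SOD3 (red) arrays, with the mean of each line as a bar; open points are probes well above background on no array. *Egln3*-1332 is the only detected probe whose lines are separated by a wide gap, and *Hif1a*-3512 has a similar difference with overlapping lines.

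Over the members, 10 of the 19 probes were well above background on all 6 arrays, 3 on some and 6 on none. Of the 13 with a fold, 10 were below 0 and the median log2 difference was -0.19, beside -0.17 over all probes outside the block that were well above background on all 6 arrays. Of the 18 probes outside the block, 1 passed as lower and none as higher, with 1.2% and 0.66% of all probes there. Among the 10 member probes above background on all arrays that is 1, beside 3.27% of all such probes outside the block. At an unadjusted p under 0.05 limma gave 2 lower probes (*Egln3*-1332 and *Hif1a*-3512), and 8% of all probes outside the block were lower by that measure. No member probe outside the block was higher at that p, beside 4.69% of all probes there. The lines were apart in 3 of the 18, all lower, and in 11.4% of all probes outside the block in that direction.

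**Figure D3:**
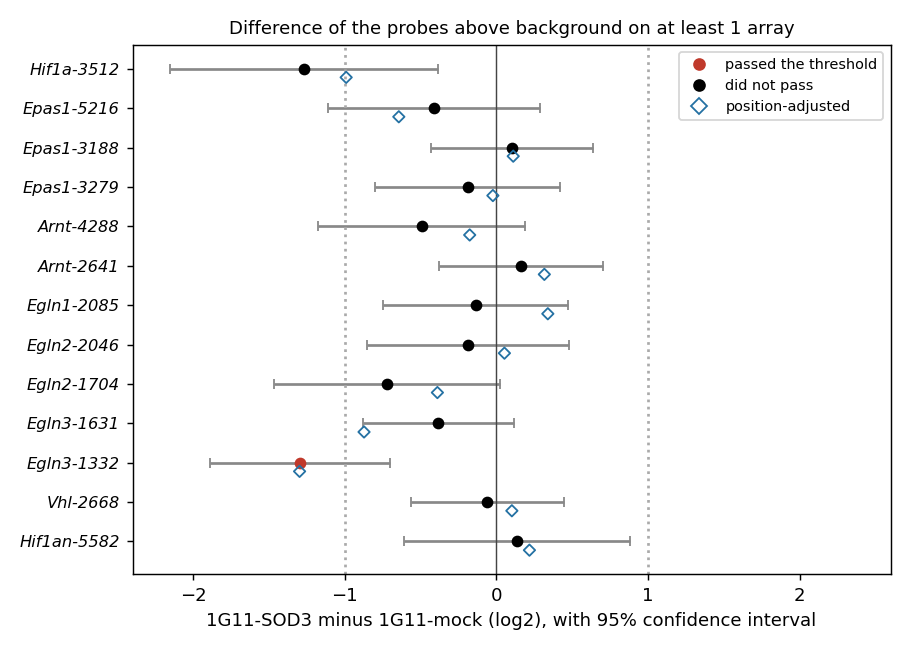
Log2 difference (1G11-SOD3 minus 1G11-mock) with its 95% confidence interval for the 13 probes above background on at least 1 array (circles; red, passed the threshold) and the position-adjusted difference (diamonds); dotted lines mark 2-fold. *Egln3*-1332 keeps its value of -1.30 after position adjustment, and *Egln3*-1631 moves from -0.38 to -0.87.

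The settings were compared for the *Egln3* probes and *Hif1a*-3512. *Egln3*-1332 was lower under each of them. *Egln3*-1631 was also lower under each, from -0.90 to -0.21 with all arrays kept, and did not pass. *Hif1a*-3512 stayed between -1.29 and -0.99 with all arrays kept, and its adjusted p varied more widely.

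**Figure D4:**
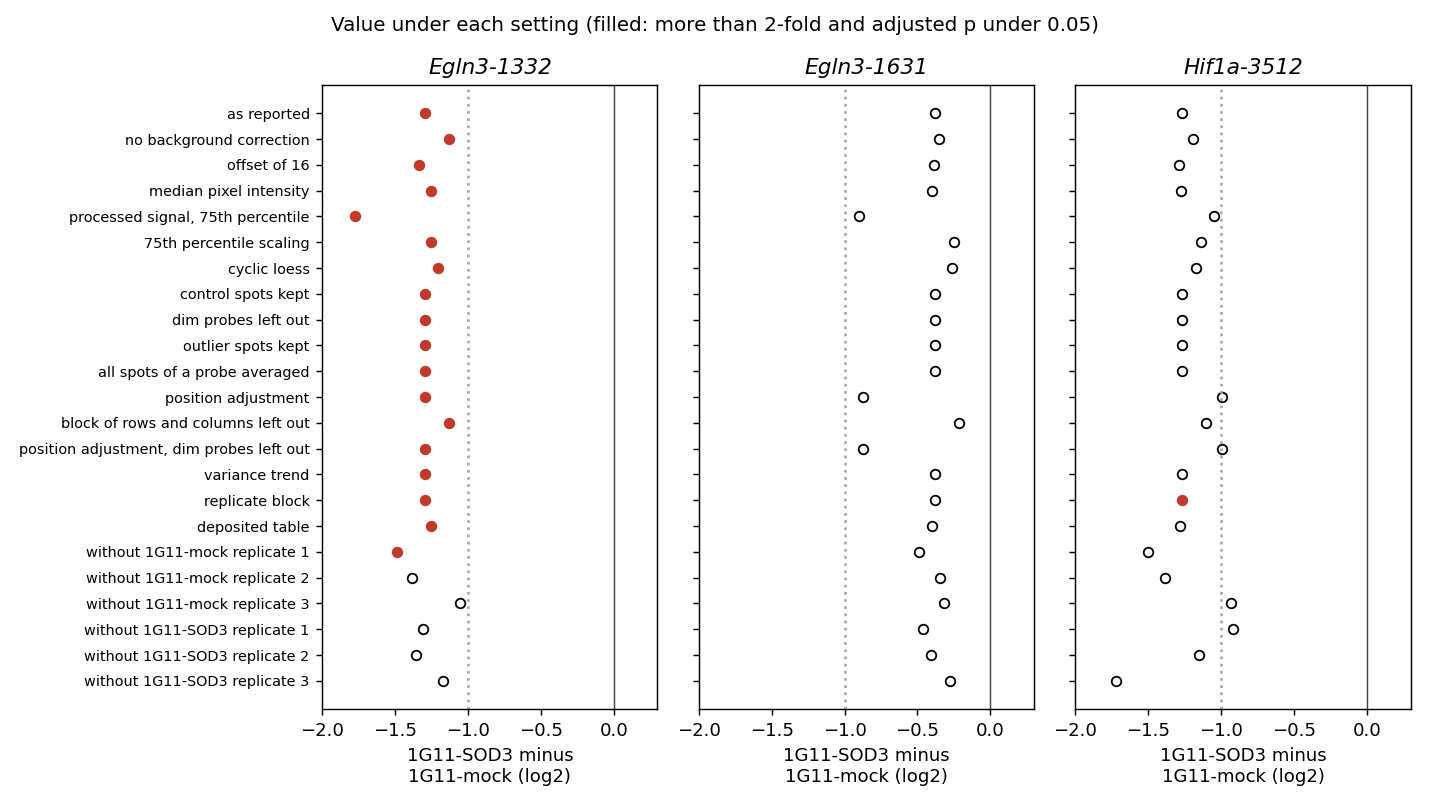
Log2 difference (1G11-SOD3 minus 1G11-mock) of *Egln3*-1332, *Egln3*-1631 and *Hif1a*-3512 under each processing setting and without each array in turn; filled points passed the threshold and the dotted line marks 2-fold lower. All points lie below 0, *Egln3*-1332 loses the threshold only where an array is left out, and *Hif1a*-3512 passes only with the replicate block.

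Genes that HIF turns on were examined as a list of 28. Of the 25 with a probe outside the block, 1 passed as lower and none as higher, beside 1.92% and 1.19% of all genes there. *Plin2*, which encodes a coat protein of lipid droplets, read 14.26, 14.67 and 14.59 in 1G11-mock cells and 12.37, 13.48 and 13.32 in 1G11-SOD3 cells. The lines did not overlap, and the log2 difference was -1.45 (SE 0.30, adjusted p = 0.0250). It was -1.23 after position adjustment (adjusted p = 0.0112). The adjusted p rose to 0.111, 0.0775, 0.0818 and 0.0619 without 1G11-mock replicate 2, 1G11-mock replicate 3, 1G11-SOD3 replicate 1 and 1G11-SOD3 replicate 3. With the processed signal of the scanner software it was -0.81 (adjusted p = 0.0820).

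The next largest differences of the list went both ways. *Vegfa*, the angiogenic growth factor, read 12.06, 12.58 and 12.34 in 1G11-mock cells and 10.01, 11.44 and 11.58 in 1G11-SOD3 cells, without overlap. Its difference of -1.32 did not pass (SE 0.37, adjusted p = 0.0973), but -1.23 passed after position adjustment (adjusted p = 0.0247). *Vegfa* also passed with the replicate number as a block and with the probes of each gene averaged. *Angptl4*, which encodes an inhibitor of lipoprotein lipase, read 10.57, 10.17 and 10.42 against 9.58, 9.71 and 8.62, a difference of -1.08 (adjusted p = 0.0887) without overlap. *Ddit4*, an inhibitor of mTORC1 signaling, read 15.79, 15.12 and 12.28 against 15.48, 15.40 and 15.23, so that its difference of 0.97 (adjusted p = 0.569) came with 1 low 1G11-mock array, replicate 3.

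Of these 25 genes, 23 were well above background on at least 1 array. Of the 23, 15 were below 0 and 8 above. Of the 25, 5 were lower without overlap and 2 higher without overlap, beside 13.7% and 9.53% of all genes outside the block. The median log2 difference of the 25 was -0.17, against -0.064 over all genes. However, 22 of the 25 were well above background on all 6 arrays. All such probes outside the block also had a median of -0.17, and 3.27% of them passed as lower. At an unadjusted p under 0.05 limma gave 7 of the 25 as lower and none as higher, beside 10.2% and 6.44% of all genes there. The genes of glucose uptake and glycolysis in the list, such as *Slc2a1* (12.70, 12.47 and 13.20 against 12.82, 12.44 and 12.46), did not pass. Their differences ran from -0.64 for *Hk2* (95% confidence interval -1.23 to -0.05, adjusted p = 0.298) to 0.46 for *Pfkfb4* (adjusted p = 0.529). *Hk2* was among the 7 lower at an unadjusted p under 0.05 in limma. *Flt1* and *Ankrd37* had probes only inside the block, where they read higher by 1.08 and 2.39. *Ankrd37* passed (adjusted p = 0.00301) among the 12% of probes that did so there, and *Flt1* did not (adjusted p = 0.216). *Ankrd37* was well above background on only 1 1G11-mock array and *Flt1* on 2 of them.

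None of 15 cofactors and turnover genes passed in either direction, beside 1.92% lower and 1.19% higher of all genes outside the block. All 15 were well above background on all 6 arrays. They hold the coactivators of HIF, the partners of VHL in its ligase, and proteins that protect or remove the α subunit. *Crebbp*, a coactivator, read 13.51, 13.64 and 13.38 in 1G11-mock cells and 12.67, 12.76 and 13.08 in 1G11-SOD3 cells. The lines did not overlap, and the difference was -0.67 (adjusted p = 0.170). *Siah2*, a ubiquitin ligase that removes prolyl hydroxylases, read 8.80, 8.46 and 8.91 against 9.61, 9.40 and 8.99, a difference of 0.61 (adjusted p = 0.279), also without overlap. *Usp20*, a deubiquitinase, differed by -0.33 (adjusted p = 0.599). The median of the list was 0.073, with 9 genes above and 6 below 0. It was -0.064 over all genes outside the block and -0.17 over all probes there that were well above background on all 6 arrays.

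**Figure D5:**
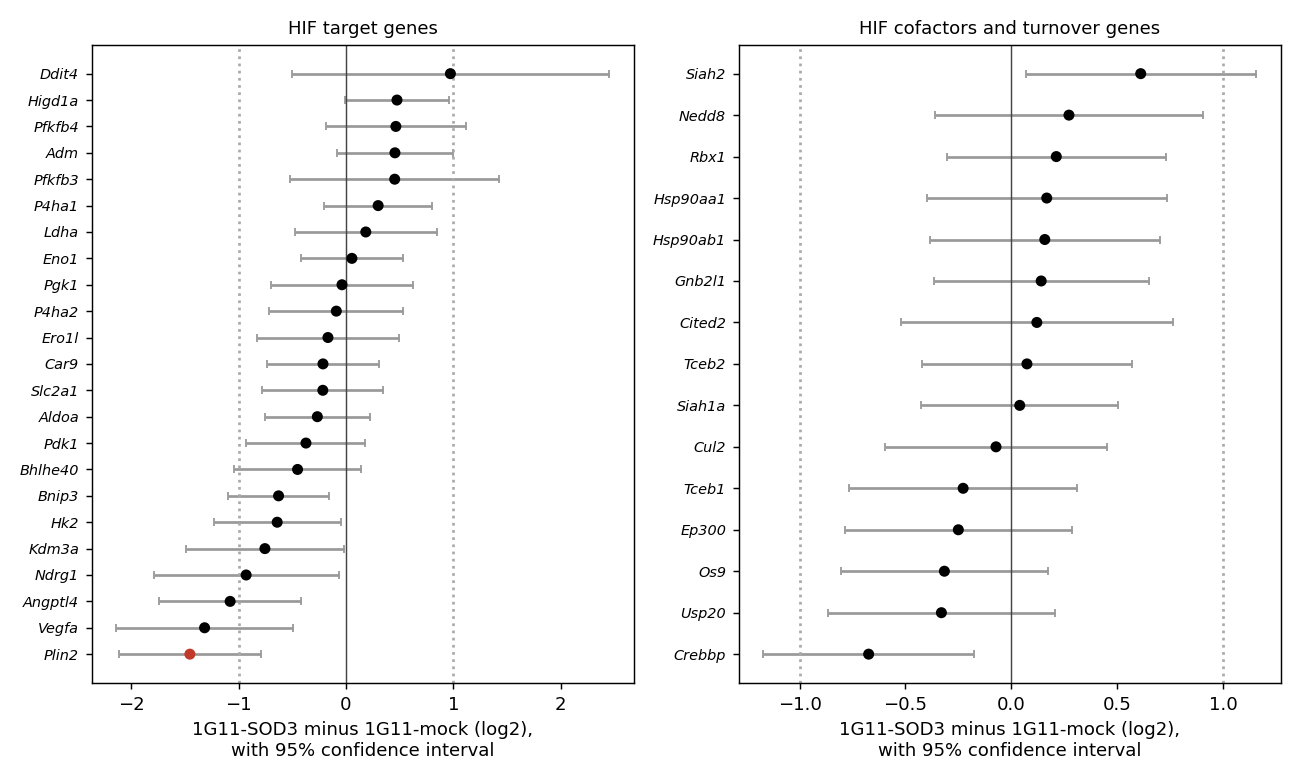
Log2 difference (1G11-SOD3 minus 1G11-mock) with its 95% confidence interval for the HIF target genes outside the block that were above background on at least 1 array (left) and for the cofactors and turnover genes (right); the red point passed the threshold, and *Hsp90ab1* lacks 1 1G11-mock spot marked as an outlier. *Plin2* is the only 1 that passed, and most intervals include 0.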

How the data were processed

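The authors deposited, for each of 6 single-color Agilent SurePrint Mouse G3 arrays, the spot intensities read by Feature Extraction 10.7.3.1, not normalized between arrays, and a table of log2 values made with normexp (offset of 50) and quantile normalization in limma. That table (median 7.52 in each array) was recomputed to within 0.005 and served as an alternative.

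Mean spot intensity was corrected with the local background median (normexp, offset of 50), taken to log2 and quantile normalized without control spots (limma 3.58.1, R 4.3.3). Outlier-marked spots were dropped, and spots of one probe were averaged separately inside and outside the block. The lines were compared by limma with Benjamini-Hochberg adjustment over 55961 rows. A list gene was its brightest probe outside the block. Alternatives changed the background correction, the normalization, the filters, the position handling and the variance model, added the replicate number, used the deposited table or left out each array. The surface of the position adjustment was a Gaussian of 8 rows and 4 columns (SD), which brought the SD among held-out copies of one probe from 0.65 to 0.21. On simulated data 196 of 200 changed rows were found, with 5 unchanged ones. How often differences of the size seen in the member probes would be found on the real arrays was not tested. Figures used Python 3.11.15 and matplotlib 3.10.9.

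The members and lists were chosen with earlier results of these data known. The text names every member probe and, of each HIF list, the genes that passed and the 3 largest other differences well above background on all arrays. *Slc2a1*, *Hk2*, *Pfkfb4* and list genes inside the block were added afterwards. Of the HIF target list, 1 gene is not reported here. The number of arrays, 3 per line, limits the precision, and the smallest p of an exact permutation test is 0.1 (two-sided).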

Additional observations from a re-analysis of the deposited data

How the results depend on the processing

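No member probe and no gene of the HIF lists outside the block passed as higher under any setting, and the 6 probes above background on no array have no fold and were not followed. The deviations of same-numbered arrays correlated by 0.17, 0.23 and 0.087, and each 1G11-mock array correlated best with its own number. Whether the numbers mark shared experiments is not given in the sources used here, and as the lowest of these was small they were not taken to pair the samples. With the replicate number as a block 2 member probes passed as lower (*Hif1a*-3512 added, adjusted p = 0.00997) and 2 HIF target genes, with 1501 rows higher and 800 lower overall against 1101 and 596. The processed signal moved the median of all rows to -0.52 and scaling to the 75th percentile to -0.34. The processed signal gave 5 lower member probes, 4 of them above background on no array, with 1235 rows higher and 10007 lower, no HIF target gene (0) and a target median of 0.017. The position adjustment, with 648 rows higher and 1567 lower, gave 2 lower member probes (*Arnt2*-5116, above background on no array, added), 2 lower target genes and a target median of 0.036. It also moved the median of all rows, from -0.030 to 0.056. Restricted to probes above background, an alternative chosen after seeing the data, it gave 1 member probe, 2 target genes and a target median of 0.034. Averaging the probes of each gene gave 2 target genes, and in each setting with 2 these were *Plin2* and *Vegfa*. Leaving out the block gave medians of -0.019 (targets), 0.16 (cofactors) and -0.0046 (all rows kept). The sign turned, with no call, for *Epas1*-3188 (-0.18 processed signal, -0.20 75th percentile), *Epas1*-3279 (0.26 processed signal), *Egln1*-2085 (0.024 processed signal, 0.34 position adjustment), *Egln2*-2046 (0.14 processed signal, 0.053 position adjustment) and *Vhl*-2668 (0.46 processed signal, 0.11 75th percentile, 0.058 cyclic loess, 0.10 position adjustment, 0.10 block left out). The cause was not tested. Without each array in turn, 0 to 1 member probes and 0 to 1 target genes passed, the target median ran from -0.31 to -0.083 and the cofactor median from -0.067 to 0.092. In these fits *Egln3*-1332 ran from -1.49 to -1.06, *Epas1*-5216 from -0.77 to -0.099, *Arnt*-4288 from -0.67 to -0.15, *Arnt*-2641 from 0.052 to 0.37, *Egln2*-1704 from -1.10 to -0.41, *Egln3*-1631 from -0.49 to -0.28, *Epas1*-3188 from -0.064 to 0.21, *Epas1*-3279 from -0.39 to 0.037, *Egln1*-2085 from -0.33 to 0.088, *Egln2*-2046 from -0.40 to 0.17, *Vhl*-2668 from -0.19 to 0.082 and *Hif1an*-5582 from -0.24 to 0.44. Signal over background limited the 6 undetected probes.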
